A study of Nasonia vitripennis x Nasonia giraulti with 2 samples.

Results

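CpG-dense windows of the Nasonia genome are described here in 2 whole-genome bisulfite libraries of reciprocal F1 hybrids. Each scaffold was divided into fixed windows of 200 bp from its first base, and a window was called dense where 15 or more of its CpGs were listed in the count tables of both libraries. By this rule 102053 of 673797 windows with a listed CpG were dense (15.1%). They lay on 675 of 2683 scaffolds and held 1829004 of 5531492 CpGs (33.1%). The number of CpGs per dense window ran between 15 and 35, with a median of 17. Methylation played no part in the choice. Windows of 4 to 6 listed CpGs served for comparison, and there were 139795 of them with 694396 CpGs on 1888 scaffolds.

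The hybrids were F1VG, with a N. vitripennis (Nv, strain AsymCX) mother and a N. giraulti (Ng, strain R16A) father, and F1GV, with a Ng mother and a Nv father. Each cross was represented by 1 library, made from whole bodies of 50 pooled adult females collected 24 h after eclosion. Females are diploid in these haplodiploid parasitoid wasps, so every hybrid carried a V and a G copy of each locus, and reads over species differences were assigned to the V or the G allele. A pool of whole bodies averages over tissues and individuals, and with 1 library per cross a test between F1VG and F1GV compares 2 libraries, not the crosses.

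In animals DNA methylation is placed mainly on the cytosine of a CpG dinucleotide. Bisulfite converts unmethylated cytosines and leaves methylated ones unconverted, so the share of unconverted reads is read as the methylation level. In Nasonia, as in other insects with a working methylation system, the mark is sparse and sits mostly in the exons of a subset of genes. Methylated cytosine is prone to deamination to thymine, and sequence that has long been methylated in the germline tends to hold few CpGs, whereas the CpG islands of vertebrates are regions that keep many CpGs and are mostly free of the mark.

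The libraries held 286833473 counts at 5804802 CpGs in F1VG and 371795018 counts at 6527248 CpGs in F1GV, and only CpGs with at least 8 reads on each allele were listed. Dense windows were covered as well as or better than the comparison windows. The median depth per CpG was 50 reads in F1VG and 60 in F1GV for dense windows, against 43 reads in F1VG and 54 in F1GV for windows of 4 to 6 CpGs. V reads made up 50.2% of allele reads in F1VG and 50.0% in F1GV within dense windows. Intervals below cover counting error only, since PCR reads are not independent molecules and neighbouring CpGs share reads.

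Dense windows were almost free of methylation in both crosses and on both alleles. The level of a window was taken as the mean over its CpGs of the share of unconverted reads. Over the 102053 dense windows this level averaged 1.59% ± 0.607 in F1VG and 1.62% ± 0.522 in F1GV (SD across windows). The V allele averaged 1.57% ± 0.885 and the G allele 1.62% ± 0.952 in F1VG. In F1GV the V allele averaged 1.59% ± 0.759 and the G allele 1.66% ± 0.818. The study measured conversion on unmethylated lambda DNA, and no correction for unconverted cytosines was made to these values.

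The spread among dense windows was narrow. In F1VG 5% of dense windows lay below 0.698% and 5% above 2.65%, and in F1GV these limits were 0.850% and 2.52%. The highest dense window reached 9.93% in F1VG and 16.5% in F1GV. Only 40 dense windows in F1VG and 5 in F1GV had no unconverted read at any CpG. Windows of 4 to 6 CpGs averaged 3.66% ± 11.0 in F1VG and 3.71% ± 10.8 in F1GV, and reached 99.4% and 98.8%. The medians were close, at 1.53% for dense windows and 1.60% for windows of 4 to 6 CpGs in F1VG and at 1.58% and 1.72% in F1GV, so the means differed through a tail of highly methylated windows. That tail had no counterpart among dense windows. No test was made on these means, because each cross has 1 library and neighbouring windows are not independent.

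**Figure D1:**
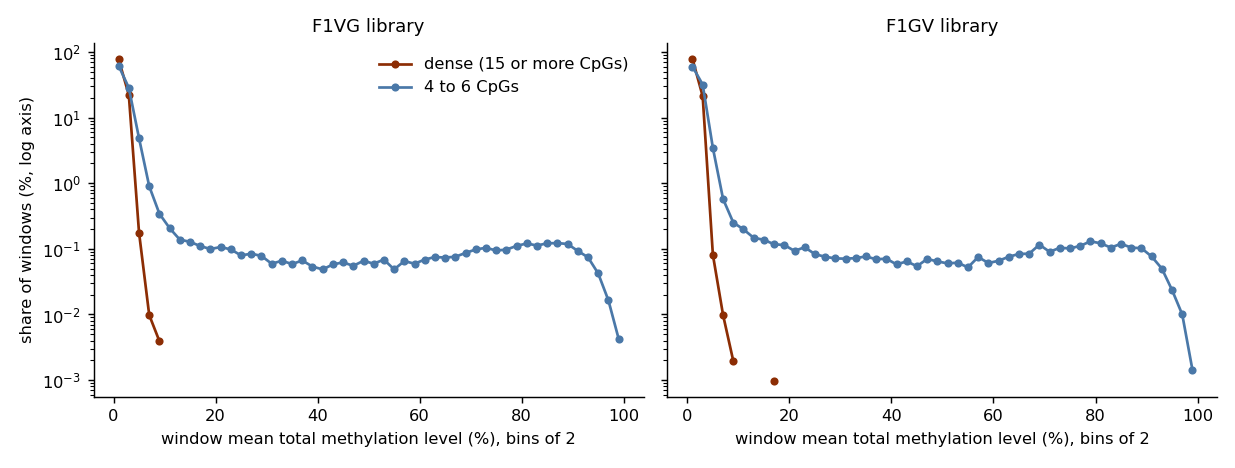
Share of windows (log axis) by mean total methylation level of the window in bins of 2 percentage points, for dense windows and windows of 4 to 6 CpGs in the F1VG and the F1GV library; empty bins are not drawn. Dense windows end at 9.93% in F1VG and at 16.5% in F1GV, whereas windows of 4 to 6 CpGs extend to 99.4% and 98.8%.

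Allelic and reciprocal differences over dense windows were small. The V minus G difference averaged -0.0494 percentage points in F1VG and -0.0728 in F1GV, and the F1VG minus F1GV difference in total level averaged -0.0372. The V allele was the higher one in 48.7% of dense windows in F1VG and in 47.9% in F1GV. A V minus G difference of 20 percentage points or more occurred in 0 dense windows in F1VG and in 1 in F1GV, against 1253 and 1268 windows of 4 to 6 CpGs. Over all dense windows the levels of the libraries were nearly unrelated (Pearson r = 0.0279, Spearman rho = 0.0124, across 102053 windows that share a genome and a read depth pattern). Among windows of 4 to 6 CpGs the corresponding values were r = 0.978 and rho = 0.161. Both are descriptions across windows, which are not replicates.

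A methylated CpG was a rare event in a dense window. A CpG was counted as methylated where its level over all reads of both libraries together was at least 20%. Such a CpG was present in 24 of 102053 dense windows, which is 0.0235% (Wilson 95% interval 0.0158% to 0.0350%), against 5681 of 139795 windows of 4 to 6 CpGs, or 4.06% (3.96% to 4.17%). The share over all windows was 3.83%. Counted by CpG, 33 of 1829004 CpGs in dense windows (0.00180%) and 18493 of 694396 CpGs in windows of 4 to 6 CpGs (2.66%) reached 20%. A level of at least 50% was reached in 6 dense windows and in 4182 windows of 4 to 6 CpGs. No dense window had a mean pooled level of at least 20%, which allows a share of up to 0.00376% (upper Wilson bound), against 4269 windows of 4 to 6 CpGs.

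The share of methylated windows went down in steps with the number of listed CpGs. It was 11.0% for 1 to 3 CpGs, 4.06% for 4 to 6, 1.17% for 7 to 9, 0.359% for 10 to 12 and 0.0959% for 13 to 14. Within the dense windows it was 0.0272% for 15 to 19 CpGs (21 of 77135), 0.0136% for 20 to 24 CpGs (3 of 22135) and 0 of 2783 for 25 to 35 CpGs (upper Wilson bound 0.138%). At the limit of the rule itself, windows of 15 CpGs were methylated in 7 of 20950 cases (0.0334%) and windows of 14 CpGs in 17 of 24026 (0.0708%), with overlapping intervals of 0.0162% to 0.0690% and 0.0442% to 0.113%. A window with more CpGs has more chances to hold a methylated one, so the count was repeated with equal numbers. Among the first 5 listed CpGs of each dense window, 9 of 102053 windows (0.00882%) were methylated, against 1775 of 46294 windows of exactly 5 CpGs (3.83%). With at least 16 reads per allele at every CpG used, 12 of 96131 dense windows (0.0125%) and 4.79% of windows of 4 to 6 CpGs were methylated. With a limit of 10% in place of 20% the counts were 1444 dense windows (1.41%) and 7716 windows of 4 to 6 CpGs (5.52%). A CpG is listed only with enough reads on both alleles, so a window of few listed CpGs need not hold few CpGs. The least covered allele had a median of 12 reads for 1 to 3 CpGs and 14 for 4 to 6. This median was 18 for 15 to 19 CpGs and 17 for 25 to 35. Among windows of 4 to 6 CpGs with no CpG listed in 1 library alone, 4294 of 62111 (6.91%) were methylated. How far the steps follow the listing rather than the CpG density of the sequence was not tested.

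**Figure D2:**
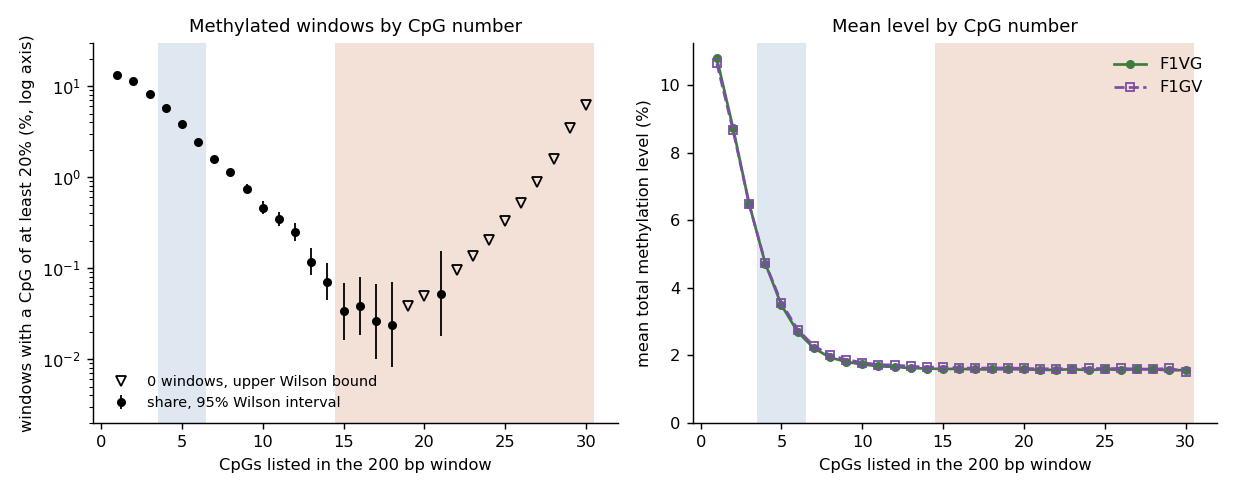
Left, share of windows with a CpG of at least 20% (log axis, 95% Wilson intervals, open triangles for the upper bound where no window qualified) by the number of CpGs listed in the window; right, mean total level in F1VG and F1GV. Shading marks dense windows (up to 30 CpGs) and windows of 4 to 6 CpGs, and the share is 0.0334% at 15 CpGs against 3.83% at 5 CpGs.

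The contrast was found across scaffolds. On the 106 scaffolds with at least 100 windows of each kind, the share of methylated windows was lower among dense windows on all but 5, where it was equal, and the mean level was lower in dense windows on 106. The mean pooled level of dense windows lay between 1.54% and 1.64% on every one of these scaffolds, against a range of 1.61% to 7.47% for windows of 4 to 6 CpGs. Dense windows made up between 8.10% (SCAFFOLD135) and 31.1% (SCAFFOLD73) of the listed windows of a scaffold. The share of methylated windows was higher at greater depth in both kinds of window, though for dense windows this rests on few of them. Dense windows at or above their median depth were methylated in 16 of 51038 cases (0.0313%) and those below it in 8 of 51015 (0.0157%). For windows of 4 to 6 CpGs split at the same depth the shares were 7.76% and 2.16%. The part of depth in the contrast was not tested further.

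The regions around dense windows were also poor in methylation. Distance was measured from the centre of a window to the nearest CpG of at least 20% on its scaffold, the window's own CpGs included. Only scaffolds with such a CpG counted, which left 99046 dense windows and 125336 windows of 4 to 6 CpGs. The median distance was 50849 bp for dense windows and 24980 bp for windows of 4 to 6 CpGs. Such a CpG lay within 1000 bp of 1.40% and 10.4% of them, and these shares include windows that were themselves methylated. The share of methylated windows was 0.143% at 200 bp before and 0.126% at 200 bp after a dense window, and it was 0.858% and 0.847% at 2000 bp. Around windows of 4 to 6 CpGs it stayed between 3.45% and 4.14%. Dense windows were also paired with the nearest window of 4 to 6 CpGs within 2000 bp, which 96227 of them had. These pairs used 48913 different windows of 4 to 6 CpGs, so 1 such window could be counted several times. The dense window was methylated in 24 pairs (0.0249%) and the nearest window in 492 pairs (0.511%). The contrast was thus smaller nearby than over the genome. Both windows of the pair were methylated in 16 cases.

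Where methylation came up to a dense window, it mostly stopped there. Of 8 dense windows with methylated windows adjoining on both sides, 1 was methylated, against 1601 of 1689 windows of 4 to 6 CpGs (94.8%). With 1 methylated adjoining window, 18 of 238 dense windows (7.56%, Wilson 95% interval 4.84% to 11.6%) and 2726 of 4519 windows of 4 to 6 CpGs (60.3%, 58.9% to 61.7%) were methylated.

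**Figure D3:**
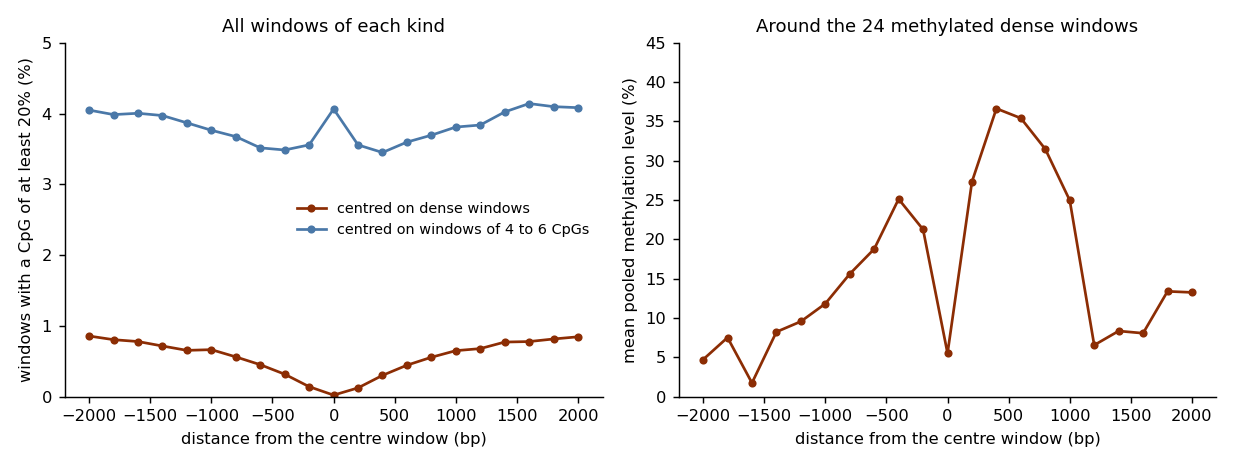
Left, share of windows with a CpG of at least 20% at distances of up to 2000 bp from all dense windows and from all windows of 4 to 6 CpGs; right, mean pooled level around the 24 methylated dense windows, each point the mean of 14 to 24 windows. The share falls towards dense windows to 0.0235% at the centre, and around the methylated dense windows the level is 5.53% at the centre and 36.6% at 400 bp after it.

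Dense windows also joined into longer stretches. They formed 75763 runs of adjoining dense windows, of which 56676 were single windows, and the 421 runs of 5 or more windows held 2312 windows. The longest run covered 11 windows with 192 CpGs at 349801 to 352000 of SCAFFOLD3 and had a level of 1.67% in both F1VG and F1GV. The next ones, 10 windows at 7675001 to 7677000 of SCAFFOLD1 and 9 windows at 39801 to 41600 of SCAFFOLD76, had levels of 1.66% and 1.99% in F1VG and 1.78% and 1.72% in F1GV. No CpG of these 3 runs exceeded a pooled level of 8.43%. The 5 windows with most CpGs were equally low. They held 35 CpGs (SCAFFOLD8, 2473801 to 2474000), 34 (SCAFFOLD22, 656001 to 656200) and 33 each (SCAFFOLD6, 3902401 to 3902600; SCAFFOLD17, 1988601 to 1988800; SCAFFOLD14, 1185801 to 1186000), and their levels ran between 1.20% and 2.19% in F1VG and between 0.730% and 2.12% in F1GV. Coordinates are those of the Nv v1.0 assembly as the count tables give them.

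The 24 methylated dense windows held mostly isolated methylated CpGs. They lay on 15 scaffolds, 21 of them had 15 to 18 CpGs, and 20 had no adjoining dense window. In 17 windows a single CpG reached 20%, in 6 windows 2 did, and in 1 window 4 did, so that 33 of their 402 CpGs (8.21%) were methylated. In the 5681 methylated windows of 4 to 6 CpGs 69.3% of CpGs were. The median pooled level of the methylated CpGs was 32.1% in dense windows and 72.6% in windows of 4 to 6 CpGs. In 16 of the 24 windows every other CpG stayed under 10%.

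The methylated CpGs mostly sat near an edge of their window. Of the 24 windows, 18 had a methylated window on 1 side and 1 on both sides. In the 18 windows 20 of the 27 methylated CpGs lay within 50 bp of the edge facing the methylated neighbour (median distance 27 bp), against 25 of the 268 other CpGs (9.33%, median 116 bp). The number of CpGs within 100 bp, itself included, was 12 in the median for methylated CpGs and 17 for all CpGs of dense windows. Across all windows, 3 of 572336 CpGs with 20 or more CpGs within 100 bp reached 20%.

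Of the 5 dense windows with the highest level, 1 each on SCAFFOLD4 and SCAFFOLD1 show this layout most plainly. In the window at 329401 to 329600 of SCAFFOLD4 (17 CpGs, 8.91% in F1VG and 8.08% in F1GV), the CpG at 329593 had 72 of 88 reads methylated in F1VG and 60 of 94 in F1GV. It was followed by a window with a mean level of 73.7%, and the window before it had 1.19%. SCAFFOLD1 had a like window at 1913201 to 1913400 (15 CpGs, 7.41% in F1VG and 6.55% in F1GV), whose CpG at 1913392 had 38 of 61 reads methylated in F1VG and 32 of 62 in F1GV, and the next window had 43.6%. In both windows this CpG thus lay at the edge facing a methylated window. The window at 139401 to 139600 of SCAFFOLD164, also among the 5, went the other way. Its methylated CpGs lay at bases 178 and 191, whereas the methylated neighbour was the window before it. The highest CpG was 53.3% in the window before and 15.9% in the window after.

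SCAFFOLD4 also held a highly methylated CpG with no methylated window listed beside it. In its window at 3598801 to 3599000 (16 CpGs, 7.20% in F1VG and 7.67% in F1GV) the CpG at 3598840 had 57 of 71 reads methylated in F1VG and 58 of 72 in F1GV. The V allele had 10 of 11 and the G allele 11 of 12 methylated reads in F1VG, and in F1GV the V allele had 8 of 10 and the G allele 7 of 10. The other 15 CpGs of the window had a median pooled level of 1.59%, and no CpG in the next window exceeded 4.92%. The window before it, which is the nearer one to this CpG, had no CpG listed in both libraries, so methylation on that side was not analysed here. Of the 24 windows, 4 others had no adjoining window that was listed and methylated. These, at 4121001 to 4121200 of SCAFFOLD1, 593001 to 593200 of SCAFFOLD17, 845601 to 845800 of SCAFFOLD13 and 2775001 to 2775200 of SCAFFOLD2, had a highest CpG of 20.0% to 22.2%, just at the limit.

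CpGs of dense windows that reached 20% in 1 library seldom did so in the other. Of 513 CpGs in dense windows with a level of at least 20% in F1VG, 22 (4.29%) also reached 20% in F1GV, where their median level was 0%. Of 132 such CpGs in F1GV, 22 (16.7%) reached 20% in F1VG, with a median level of 2.11% there. In windows of 4 to 6 CpGs the shares were 91.0% of 18670 and 90.6% of 18772 CpGs. The chosen CpGs of dense windows were shallower than the rest, with a median depth of 30 reads in F1VG and 38 in F1GV, against 50 and 60 for all CpGs of dense windows. At a limit of 50%, 9 CpGs of dense windows qualified in each library, and 5 of them (55.6%) qualified in the other as well, with median levels of 51.6% in F1GV for those chosen in F1VG and 62.3% in F1VG for those chosen in F1GV. Of the 33 CpGs chosen on the pooled level, 22 were at 20% or more in each library.

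**Figure D4:**
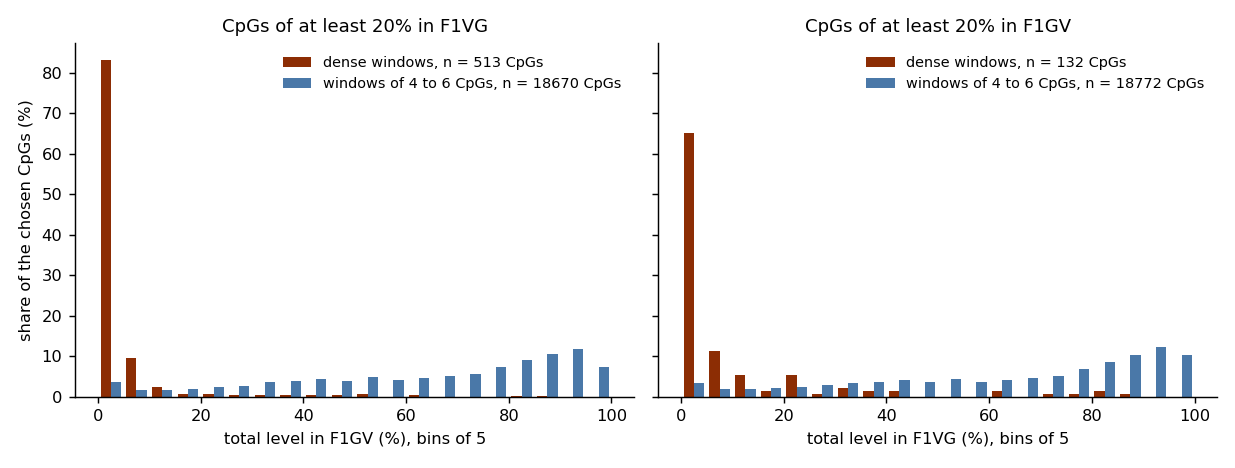
CpGs with a total level of at least 20% in F1VG (left) or in F1GV (right), by their level in the other library in bins of 5 percentage points, as a share of the chosen CpGs. CpGs of dense windows gather in the lowest bin, with medians of 0% and 2.11%, whereas those of windows of 4 to 6 CpGs have medians of 71.6% and 73.2%.

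Allele-specific methylation (ASM) was tested at each CpG by a two-sided Fisher's exact test of methylated and unmethylated V reads against G reads, in each library, with Benjamini-Hochberg adjustment over all 72225 CpGs whose pooled allele level was at least 10%. Only 2493 CpGs of dense windows (0.136% of them, in 2370 windows) passed this level filter, and the other windows had no CpG to test. Their median pooled level of 10.1% was just above the limit, and the median depth of their least covered allele was 11 reads, against 17 for all CpGs of dense windows. ASM was called at 122 of the 2493 CpGs in F1VG (4.89%), where 15.4% of all tested CpGs were called, and at 70 in F1GV (2.81%), where 18.1% of all tested CpGs were called. In F1VG the V allele was the higher one at 52 of the 2493 (2.09%, against a background of 10% of all tested CpGs) and the G allele at 70 (2.81%, background 5.40%). In F1GV V was higher at 52 (2.09%, background 13.1%) and G at 18 (0.722%, background 4.97%).

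These calls rarely recurred in the reciprocal cross. ASM was called in both libraries at 9 CpGs of dense windows (0.361%), against 8.34% of all tested CpGs. Of the 122 CpGs called in F1VG, 48 (39.3%) had a difference of the same direction in F1GV and 27 had none, and of the 70 called in F1GV, 34 (48.6%) had the same direction in F1VG and 14 had none. In windows of 4 to 6 CpGs these shares were 83.4% and 81.5%. The tested CpGs there had a median pooled level of 59.5%, against 10.1% in dense windows. A CpG near the pooled limit of 10% can pass it through 1 library alone. Of 23208 CpGs of dense windows with a total level of at least 10% in F1VG, 237 reached it in F1GV. Low recurrence in dense windows is thus partly fixed by that limit. Without the level filter, and so with adjustment over far more CpGs, 8 calls were made in dense windows in F1VG and 22 in F1GV. At the 33 CpGs of at least 20%, which the pooled level chose without regard to allele, ASM was called at 11 in F1VG (33.3%), at 17 in F1GV (51.5%) and at 8 in both (24.2%). Over all tested CpGs of at least 20% the shares were 17.5% in F1VG, 20.2% in F1GV and 10.8% in both. The shares in dense windows were above these, but the sets were not matched in level. Of the methylated CpGs, 18.2% reached 50% in dense windows and 70.9% did in windows of 4 to 6 CpGs. In addition, 4 of the 8 CpGs called in both lay in 1 window of SCAFFOLD8. No test of the difference in shares was made.

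The 9 CpGs called in both libraries lay in 5 windows. At 6 of them V was the methylated allele in both crosses (0.241% of the 2493, against 5.78% of all tested CpGs). At 1 of them G was (0.0401%, against 2.31%), and at 2 the alleles changed places (0.0802%, against 0.246%). Each of these shares was below the background. The window at 440801 to 441000 of SCAFFOLD8 had the highest pooled level of all dense windows, with 9.72% in F1VG and 16.5% in F1GV, and held 4 of the 9. Its V allele averaged 15.3% and its G allele 5.11% in F1VG, and the V allele averaged 28.8% and the G allele 3.99% in F1GV. At its CpG 440848, 15 of 23 V reads and 2 of 28 G reads were methylated in F1VG (adjusted p = 0.000250, Fisher's exact test). In F1GV all 24 V reads and 2 of 11 G reads were (adjusted p = 1.37e-05, Fisher's exact test). The 4 methylated CpGs lay at bases 27 to 48 of the window, the other 12 CpGs were below 20%, and the window before had a CpG of 21.3%. CpGs this close are read by the same molecules, so the 4 calls are not separate evidence.

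The V allele was also the methylated one in the window at 2196601 to 2196800 of SCAFFOLD16 (17 CpGs). At CpG 2196736, 15 of 28 V reads and 3 of 32 G reads were methylated in F1VG, and 18 of 36 V reads and 0 of 37 G reads in F1GV (adjusted p = 0.00277 and 3.50e-06, Fisher's exact test). At CpG 2196786, nearer the methylated window that followed, 10 of 14 V reads and 4 of 22 G reads were methylated in F1VG and 13 of 14 V reads and 1 of 19 G reads in F1GV (adjusted p = 0.0296 and 6.38e-06, Fisher's exact test). The opposite allele carried the mark at CpG 1318807 in the window at 1318801 to 1319000 of SCAFFOLD1. There 1 of 17 V reads and 14 of 21 G reads were methylated in F1VG, and 0 of 21 V reads and 10 of 19 G reads in F1GV (adjusted p = 0.00203 and 0.00109, Fisher's exact test). The allele that was methylated in these 3 windows was thus of the same species whichever parent had passed it on.

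**Figure D5:**
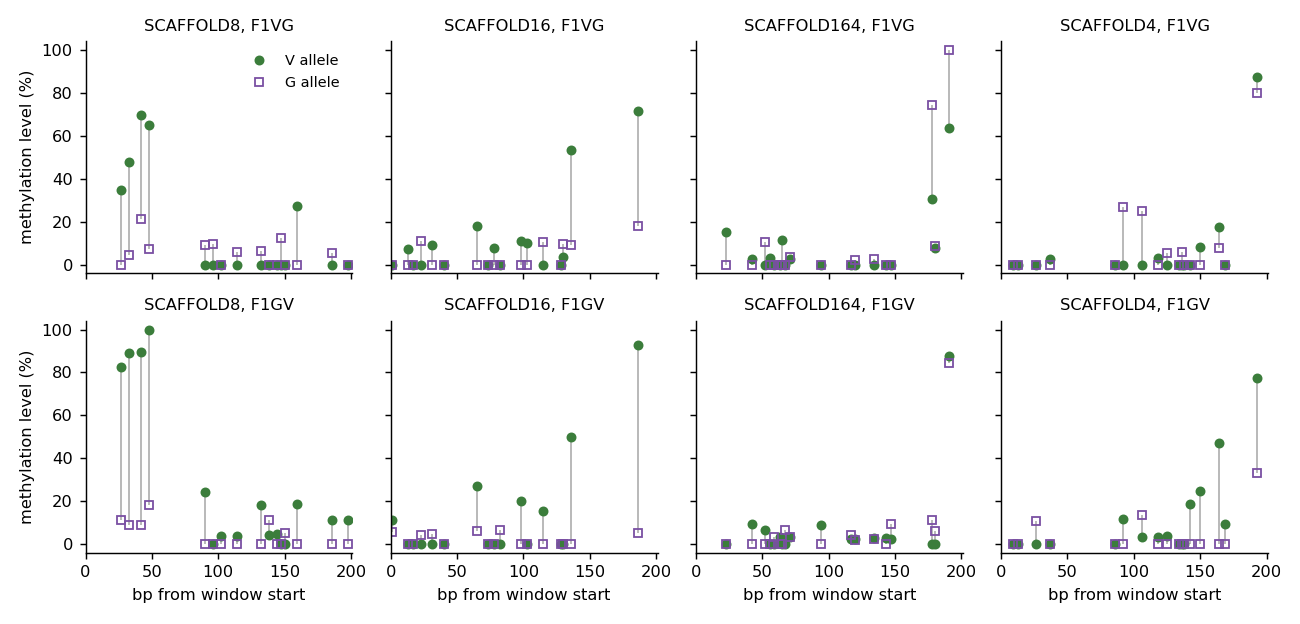
Methylation level of the V allele (filled circles) and the G allele (open squares) at each CpG of 4 methylated dense windows, by distance from the window's start, with F1VG above and F1GV below; grey lines join the alleles of a CpG. In the SCAFFOLD8 and SCAFFOLD16 windows V is above G at the methylated CpGs in both libraries, whereas in the SCAFFOLD164 and SCAFFOLD4 windows the methylated CpGs lie mostly towards the end of the window.

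Whether the allelic difference changed with the cross was tested at each CpG as an interaction in a logistic model, with a likelihood ratio whose p comes from a chi-square approximation, adjusted over the same 72225 CpGs. It was called at 115 of 2493 CpGs of dense windows (4.61%), with a background of 4.73%, of which 48 went towards the maternal allele (background 2.09%) and 67 towards the paternal allele (2.64%), so these shares were near the background. Without the level filter 2 calls were made. At CpG 4121143 in the window at 4121001 to 4121200 of SCAFFOLD1, 17 of 42 V reads and 0 of 19 G reads were methylated in F1VG, and 2 of 57 V reads and 11 of 24 G reads in F1GV (adjusted p = 1.54e-06, likelihood ratio chi-square test). The methylated allele was the maternal one in both crosses. At CpG 1936391 in the window at 1936201 to 1936400 of SCAFFOLD13, 0 of 28 V reads and 7 of 20 G reads were methylated in F1VG, and 8 of 28 V reads and 0 of 42 G reads in F1GV (adjusted p = 1.65e-05, likelihood ratio chi-square test), so the methylated allele was the paternal one. Each was a single CpG of its window. A neighbouring pair at 555780 and 555785 in the window at 555601 to 555800 of SCAFFOLD33 was called as well (adjusted p = 0.0358 and 0.0292, likelihood ratio chi-square test). The same molecules cover this pair, so its 2 calls are not separate evidence. At 555785, 2 of 22 V reads and 3 of 23 G reads were methylated in F1VG, and 17 of 27 V reads and 1 of 33 G reads in F1GV.

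The total level was compared between the libraries at 1522 CpGs of dense windows with more than 10 reads in each library and a pooled level of at least 10%. It differed at 137, with a background of 10% of 67810 tested CpGs (Fisher's exact test, adjusted). At 106 it was higher in F1VG (6.96%, background 4.61%) and at 31 lower (2.04%, background 5.40%). In windows of 4 to 6 CpGs 1088 of 22385 were higher (4.86%) and 1351 lower (6.04%). F1VG was the shallower library, and the part of depth in this split was not tested. Without the level filter 20 calls were made.

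In several of the windows with most such CpGs, the called CpGs had methylated reads on 1 allele of 1 library only. A CpG with no methylated read in 1 library passes the pooled limit of 10% only through its level in the other. The pattern is thus partly fixed by that limit and is not separate support for a difference between the libraries. In the window at 1407801 to 1408000 of SCAFFOLD38 (17 CpGs), neither allele had a methylated read in F1VG at 1407858, 1407908 and 1407932. In F1GV the V allele had 16 of 43, 11 of 30 and 18 of 32 methylated reads at these CpGs and the G allele none. Within 559801 to 560000 of SCAFFOLD11 (25 CpGs), none of 14 V reads was methylated in F1VG at 559818 and 559849, against 7 of 17 and 10 of 17 G reads, and neither allele had a methylated read there in F1GV. Within 4786601 to 4786800 of SCAFFOLD4 (20 CpGs), 2 CpGs at 4786689 and 4786691 each had 0 of 21 methylated V reads and 12 of 47 methylated G reads in F1VG and none in F1GV. Positions so close are read by the same molecules, so these 2 CpGs are not separate evidence.

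The remaining windows of this group had a mixed pattern. In the window at 1166601 to 1166800 of SCAFFOLD1, 0 of 11 V reads and 12 of 15 G reads were methylated at 1166611 in F1VG, and over all reads 18 of 55 were methylated in F1VG, against 5 of 74 in F1GV (adjusted p = 0.00639, Fisher's exact test). Within 9044601 to 9044800 of SCAFFOLD1, 1 of 26 V reads at 9044714 was methylated in F1VG and 17 of 30 in F1GV. The smallest adjusted p for total level among the CpGs of at least 20% was at CpG 139578 in the window at 139401 to 139600 of SCAFFOLD164, with 30 of 54 reads methylated in F1VG and 5 of 77 in F1GV (adjusted p = 1.39e-07, Fisher's exact test). At the next methylated CpG, 139591, the counts were 37 of 42 reads in F1VG against 61 of 70 in F1GV, which the test did not separate (adjusted p = 1, Fisher's exact test).

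Over the 24 methylated windows as a group the V minus G difference averaged 0.622 percentage points ± 3.74 in F1VG and 3.14 ± 6.75 in F1GV (SD across windows). Neither direction was stable. With a minimum of 20 CpGs the means were -0.451 in F1VG and -0.974 in F1GV, with a limit of 10% for a methylated CpG they were -0.0495 and 0.00361, and with a limit of 50% they were -1.58 and 0.989. V was the higher allele in 14 windows in F1VG and in 13 in F1GV, in both in 9, and G was higher in both in 6. The mean in F1GV rested in large part on the SCAFFOLD8 window with its difference of 24.8 and on the window at 386401 to 386600 of SCAFFOLD24 with 15.7, where 4 of 15 V reads and 3 of 18 G reads were methylated at CpG 386540 in F1VG and 13 of 17 V reads and 0 of 23 G reads in F1GV. At the level of single windows, total levels of the libraries were related among the 24 (r = 0.613, rho = 0.596), and V minus G differences were too (r = 0.715, rho = 0.563). These are descriptions over windows chosen for their level.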

How the data were processed

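Groups were taken from the labels. Per the labels and the study's methods, the authors trimmed single-end reads with Trimmomatic, mapped them by BWA against v1.0 assemblies of both species after in-silico conversion, kept unique alignments, assigned alleles by SNPs and indels and deposited whole-number counts of converted and unconverted reads per CpG, over all reads, V reads and G reads, without normalization (base calls by CASAVA 1.8.2). CpGs with at least 8 reads per allele are listed. Whether the counts sum both strands, and how mapping bias towards a reference was corrected, was not tested. A window can have few listed CpGs because CpGs failed that depth.

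Levels, Wilson 95% intervals, Fisher's exact tests and likelihood ratio tests (1 degree of freedom) used SciPy 1.17.1 and Numba 0.67.0, with tables in pandas 2.3.3, arrays in NumPy 2.4.6 and plots in Matplotlib 3.10.9 under Python 3.11.15. The tests were tested on simulated data. A call needed an adjusted p under 0.05. Windows were named by fixed rules: the 5 with most CpGs, the 5 highest, up to 3 per direction by number of called CpGs for each test, and the 3 longest runs. Other windows and CpGs were named after their values were seen. The members and lists were chosen with earlier results of these data known. Gene names and base sequences were not used here.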

Additional observations from a re-analysis of the deposited data

Results flagged for a closer look

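The allele by cross interaction was called at 115 of 2493 tested CpGs of dense windows (4.61%), near the share of 4.73% over all tested CpGs. Only 2 calls were left without the level filter. Calls of this interaction are flagged because it tests the V minus G difference of a CpG between the libraries of the reciprocal crosses. Among the CpGs of the windows named for it, SCAFFOLD1 4121143 had an adjusted p of 1.54e-06, SCAFFOLD13 1936391 of 1.65e-05, SCAFFOLD33 555780 of 0.0358 and SCAFFOLD33 555785 of 0.0292 (likelihood ratio test, adjusted over all tested CpGs). SCAFFOLD1 4121143 was methylated on the maternal allele in each cross and SCAFFOLD13 1936391 on the paternal allele, and neither window has another CpG called in both libraries. With 1 library per cross these compare 2 libraries, and the crosses cannot be told apart from the libraries.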

How the results depend on the processing

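Of 93 values under an alternative setting, 37 stayed within the counting interval or within 1.5 times the count of the main value, 52 moved and 4 reversed. The counting intervals of the means are narrow, so that small shifts are included among the moves. With a minimum of 12 CpGs there were 182591 dense windows with a mean level of 1.60% in F1VG and 1.65% in F1GV, a methylated share of 0.0805%, mean V minus G in methylated windows of 1.90 and 5.91 percentage points, a mean level below that of windows of 4 to 6 CpGs (differences of -2.06 in F1VG and -2.06 in F1GV), and 355 and 322 ASM calls, 355 calls in total level and 254 interaction calls. With a minimum of 20 CpGs there were 24918 dense windows, levels of 1.57% and 1.60%, a share of 0.0120%, differences to windows of 4 to 6 CpGs of -2.09 and -2.11, and 40 and 8 ASM calls, 34 in total level and 43 interaction calls. Their mean V minus G reversed to -0.451 in F1VG and -0.974 in F1GV, over 3 methylated windows.

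With at least 16 reads per allele the mean level in F1GV was 1.63%, the methylated share 0.0125%, its difference to windows of 4 to 6 CpGs -4.77 percentage points, and the differences in mean level -2.85 in F1VG and -2.84 in F1GV. ASM calls then numbered 57 in F1VG and 42 in F1GV, total level calls 55 and interaction calls 44. A limit of 10% for a methylated CpG gave a share of 1.41% and a mean V minus G that reversed to -0.0495 in F1VG and was 0.00361 in F1GV. A limit of 50% gave a share of 0.00588%, a difference in share of -2.99, and V minus G of -1.58 in F1VG, again reversed, and 0.989 in F1GV, over 6 windows. The sign of V minus G over the methylated windows in F1VG therefore depended on these settings. The first 5 CpGs against windows of 5 gave a share of 0.00882% and a difference of -3.83. A grid shifted by 100 bp moved V minus G in F1VG to 1.73 and the differences in mean level to -2.03 in F1VG and -2.05 in F1GV. Against the nearest window of 4 to 6 CpGs the difference in share was -0.488 and those in mean level -0.323 in F1VG and -0.313 in F1GV. An adjusted p under 0.01 left 38 ASM calls in F1VG, 35 in F1GV, 47 calls in total level and 14 interaction calls, and no level filter left 8, 22, 20 and 2.

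The share of methylated windows and the mean level were lower in dense windows under every alternative run. No replicate was left out, since each cross has 1 library. No paired analysis was possible because each cross has 1 library. Depth limits single CpGs, as 8 reads per allele are enough to be listed.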
